A study of Mus musculus with 6 samples.

Results

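The phagocyte NADPH oxidase is assembled from a small set of proteins, and 5 of its genes are described here, Cybb, Cyba, Ncf1, Ncf4 and Rac2. They were taken by symbol from the 32285 genes of the count files, all 5 were found, and their UMI counts were read in every library. The question was in which cells of a pancreatic tumour these genes are transcribed and whether their levels differ between tumours labelled OE-MLKL and OE-Vector. The libraries came from primary pancreatic tumours that grew in C57BL/6 mice, 6 to 8 weeks old in the methods of the study, for 4 weeks after orthotopic injection of KPC cells. KPC cells are a mouse pancreatic cancer line derived from a genetically engineered tumour model with a Pdx1-driven Cre, and the injected cells bore a control vector in the group OE-Vector and a construct overexpressing MLKL in the group OE-MLKL. MLKL is the effector that ruptures the membrane in necroptosis, and in this model only the injected cells carry the construct, while the stroma and leukocytes are those of the C57BL/6 hosts. The labels name 3 tumours a group. Count matrices of 4 libraries were analysed, OE-Vector 1 and OE-MLKL 1, 2 and 3, and the matrices of OE-Vector 2 and 3 were not analysed here.

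The oxidase transfers electrons from NADPH to oxygen and so makes superoxide, the first product of the respiratory burst with which neutrophils and macrophages attack engulfed material. Cybb encodes NOX2, the catalytic membrane subunit, and Cyba encodes the partner chain that stabilises it in the membrane. Ncf1 and Ncf4 encode cytosolic subunits, an organiser and a lipid-binding regulator, which move to the membrane on activation, and Rac2 encodes the small GTPase of blood cells that switches the complex on.

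In the GENCODE vM21 annotation of GRCm38, Cybb (ENSMUSG00000015340) is on the minus strand of chromosome X, from 9435252 to 9487771. Cyba (ENSMUSG00000006519) is on the minus strand of chromosome 8, from 122424776 to 122432930, and is overlapped by Gm20388 on the other strand. Ncf1 spans 134220053 to 134229625 on the minus strand of chromosome 5, with Gtf2ird2 overlapping on the other strand. Ncf4 and Rac2 share chromosome 15, Ncf4 from 78244801 to 78262580 on the plus strand and Rac2 from 78559167 to 78572783 on the minus strand. Whether the counting used strand is not given in the sources used here, so reads of the overlapping pairs may not have been separated.

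The promoter stretches of Cybb, Cyba and Ncf1 are shown because these 3 genes are transcribed in the same leukocytes but in different proportions. Each is the 200 bases before the RefSeq start of the gene in GRCm38.p6, printed 5′ to 3′ on the strand of the gene. For Cybb this start lies inside the span that GENCODE gives the gene, and for Cyba just outside it, so the starts of the 2 annotations differ. Capitals mark a CCAAT box (CCAAT, or ATTGG on the other strand) or a GC box (GGGCGG, or CCGCCC on the other strand).
Cybb, chrX:9469325-9469524, minus strand: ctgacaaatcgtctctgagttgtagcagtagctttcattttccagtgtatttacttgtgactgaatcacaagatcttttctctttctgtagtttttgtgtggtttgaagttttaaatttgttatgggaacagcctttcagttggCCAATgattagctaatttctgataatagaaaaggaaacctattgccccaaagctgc
Cyba, chr8:122432941-122433140, minus strand: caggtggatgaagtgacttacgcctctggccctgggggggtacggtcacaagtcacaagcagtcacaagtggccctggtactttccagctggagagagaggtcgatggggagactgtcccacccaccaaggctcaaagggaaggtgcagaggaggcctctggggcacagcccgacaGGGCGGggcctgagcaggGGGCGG
Ncf1, chr5:134229626-134229825, minus strand: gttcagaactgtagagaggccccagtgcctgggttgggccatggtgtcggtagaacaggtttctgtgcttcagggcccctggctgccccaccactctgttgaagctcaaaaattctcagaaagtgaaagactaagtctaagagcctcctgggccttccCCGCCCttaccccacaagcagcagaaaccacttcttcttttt
The Cybb stretch held a CCAAT box 56 bases before the start and no GC box. The Cyba stretch held GC boxes 24 and 6 bases before the start and no CCAAT box, and the Ncf1 stretch held a GC box on the other strand 42 bases before it. A CCAAT box stood in 29.3% and a GC box in 31.0% of 32851 mouse promoters over the same window. A 6-base site of the myeloid transcription factor PU.1 (GAGGAA, or TTCCTC on the other strand) was also searched for. It was in none of the 3 stretches and in 19.0% of the same promoters. Shorter or variant PU.1 sites were not searched for. Ncf4 and Rac2 were not matched.

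The 4 libraries held 150591289 to 169978362 UMIs, and 63182 barcodes were kept as cells. Cell types were gated on marker lists that hold none of the 5 genes, which gave 25469 neutrophils, 9039 macrophages, 498 monocytes, 345 dendritic cells and 18248 cancer cells. Each gate showed UMIs of at least 6 of its own markers in every library. This is no test of the gates, since the same markers defined them. The monocyte and dendritic cell gates were small, with 70 to 249 and 28 to 168 cells a library, and 16.1% and 11.3% of their cells lay within 1.5 times of the cut. Median depth was 715 to 1337 UMIs in neutrophils and 4052 to 8388 in macrophages. Cell barcodes shared between any pair of libraries numbered 54 to 89, at most 0.600% of a library. In cancer cells Mlkl, the targeted gene, stood at 16.4 CPM (UMIs of a gene scaled to a common total of the gated class) in OE-Vector 1 and at 8.70, 12.8 and 19.9 CPM in the libraries labelled OE-MLKL. Mlkl did not separate the groups in the direction of the labels, although a construct without the 3′ end of the gene would not be counted by this 3′ assay, and every direction drawn between the groups below rests on the labels.

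In CPM, macrophages and monocytes held the most Cybb of these 5 classes, and neutrophils held the most Ncf1, Ncf4 and Rac2. All levels below are in CPM of the gated class, with the mean ± SD over the 4 libraries of both groups (n = 4), and levels are compared within a gene and not between genes, since 3′ counts depend on each transcript.

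Cybb, the catalytic subunit, stood at 630 CPM in macrophages of OE-Vector 1 and at 896, 807 and 833 CPM in those of OE-MLKL 1, 2 and 3. In monocytes it reached 1017 CPM in OE-Vector 1 and 578, 945 and 712 CPM in the OE-MLKL libraries. In neutrophils the values were 55.0 CPM in OE-Vector 1 (95% Poisson interval 49.8 to 60.6, counting error only) and 107, 138 and 92.7 CPM in OE-MLKL 1 to 3. Every macrophage and monocyte value was therefore above every neutrophil value. Dendritic cells gave 63.98, 12.6, 60.9 and 63.2 CPM in the same library order, the second from 2 UMIs with an interval of 1.52 to 45.4 CPM. Cancer cells gave 3.64 to 11.03 CPM. The order of the means was monocytes (813 ± 204), macrophages (791 ± 114), neutrophils (98.2 ± 34.4), dendritic cells (50.2 ± 25.1) and cancer cells (6.35 ± 3.26), of which monocytes and macrophages did not differ beyond their spread.

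Cyba, the membrane partner of Cybb, stood in neutrophils at 1081 CPM in OE-Vector 1 and at 1344, 1573 and 1048 CPM in OE-MLKL 1 to 3. Macrophages held 1295 CPM in OE-Vector 1 and 1086, 1245 and 794 CPM in the others. Monocytes spanned 762 to 1298 CPM and dendritic cells 557 to 1031 CPM, so the ranges of macrophages and monocytes overlapped those of the other leukocytes, while every neutrophil value was above every dendritic cell value. Cancer cells held less, 74.0 CPM in OE-Vector 1 and 38.5, 53.1 and 46.3 CPM in the OE-MLKL libraries.

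Ncf1, the organiser, was in neutrophils 898 CPM in OE-Vector 1 and 418, 780 and 1395 CPM in OE-MLKL 1 to 3. In macrophages it was 249 CPM in OE-Vector 1 and 243, 387 and 392 CPM in the others, below the neutrophil value of each library. Monocytes held 120 to 348 CPM, dendritic cells 88.1 to 321 CPM and cancer cells 3.104 to 24.2 CPM. OE-MLKL 1 was the lowest and OE-MLKL 3 the highest library for Ncf1 in all 5 cell types. The same 2 libraries were the lowest and the highest in barcodes of up to 100 UMIs, taken as free RNA, at 63.3 and 241 CPM.

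Ncf4, the lipid-binding subunit, was 262 CPM in neutrophils of OE-Vector 1 and 197, 242 and 245 CPM in those of OE-MLKL 1 to 3. Its macrophage values ran from 74.8 to 118 CPM, its monocyte values from 75.3 to 132 CPM and its dendritic cell values from 12.6 to 93.6 CPM. The neutrophil values lay above all of these.

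Rac2, the GTPase, was 807 CPM in neutrophils of OE-Vector 1 and 475, 669 and 732 CPM in OE-MLKL 1 to 3. Macrophages held 161 to 251 CPM, monocytes 99.6 to 333 CPM and dendritic cells 83.7 to 164 CPM, all below the lowest neutrophil value. Rac2 was not confined to phagocytes: T and NK cells held 908 CPM in OE-Vector 1 and 605, 795 and 788 CPM in OE-MLKL 1 to 3, above the neutrophils of the same library in all 4, and B cells held 209 to 424 CPM.

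**Figure D1:**
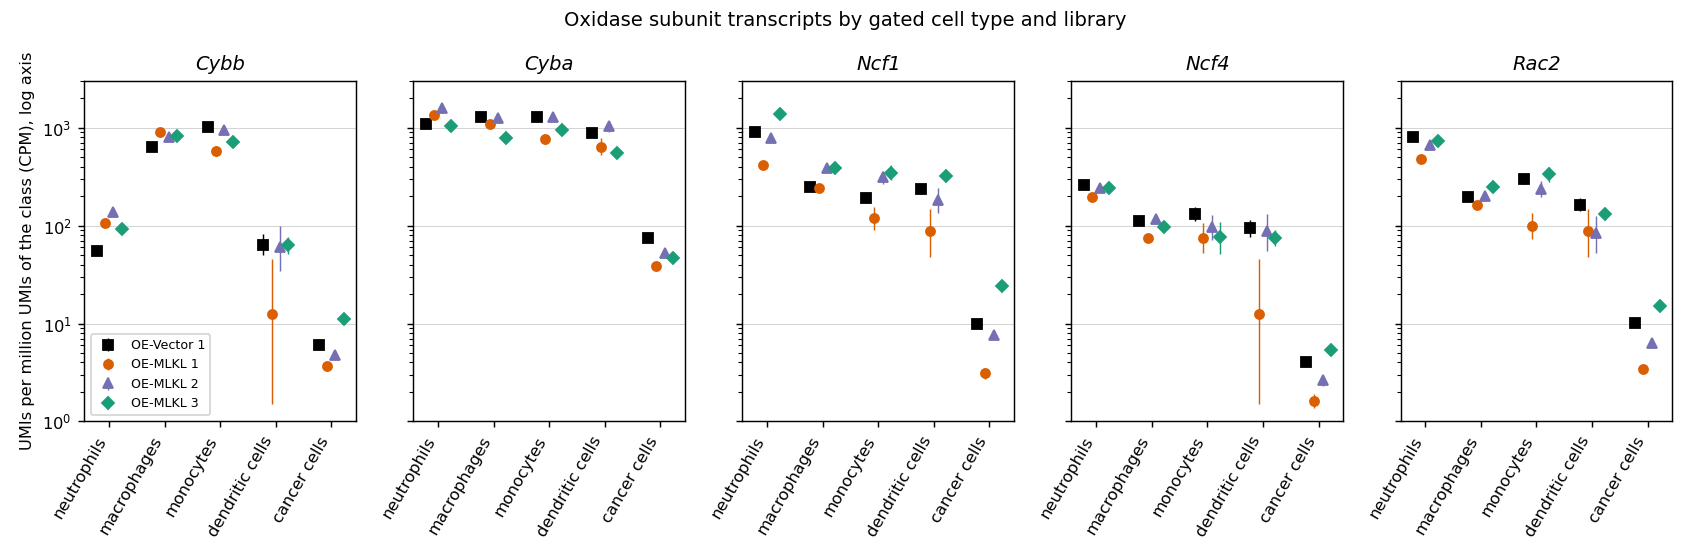
Level of each oxidase gene in CPM (log axis) in 5 gated cell types, 1 marker per library (square OE-Vector 1; circle, triangle and diamond OE-MLKL 1, 2 and 3) with its 95% Poisson interval. Cybb is at 578 to 1017 CPM in macrophages and monocytes and at 138 CPM or less in neutrophils, while Ncf1, Ncf4 and Rac2 are highest in neutrophils among the types drawn.

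The cell types were compared in 1 model over 20 sums of UMIs, with the library as a block (edgeR quasi-likelihood test, Benjamini-Hochberg over 13611 genes), and values are log2 fold changes with standard errors. Since the same tumours gave all sums and the library is a block, the p-values rest on the spread between libraries left by this model. That spread is pooled over the 5 cell types and partly shared over genes, so it is not the spread of each contrast alone. Between neutrophils and macrophages all 5 genes passed the threshold, as did 68.4% of all genes tested. Cybb was lower in neutrophils by a log2 fold change of -2.84 ± 0.30 (adjusted p = 6.8e-08). Ncf1 was higher in neutrophils by 1.52 ± 0.25, Ncf4 by 1.45 ± 0.21 and Rac2 by 1.91 ± 0.21, the largest adjusted p of the 3 being 2.8e-05. Cyba was higher by 0.41 ± 0.15 (adjusted p = 0.0187). The Cyba call was lost with library-size scaling (0.21, adjusted p = 0.243), without OE-MLKL 2 (0.39, adjusted p = 0.0943) and without OE-MLKL 3 (0.26, adjusted p = 0.252).

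Against monocytes the neutrophil pattern was the same in direction, with all 5 genes past the threshold beside 48.1% of all genes. The log2 fold change of neutrophils over monocytes was -2.78 ± 0.30 for Cybb, 0.56 ± 0.15 for Cyba, 2.14 ± 0.27 for Ncf1, 1.62 ± 0.24 for Ncf4 and 1.86 ± 0.22 for Rac2. Cyba did not pass here with library-size scaling (0.25, adjusted p = 0.213).

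Over dendritic cells neutrophils were higher in all 5 genes, where 55.3% of all genes passed. The largest log2 difference was that of Rac2 at 2.80 ± 0.24, followed by Ncf1 at 2.28 ± 0.28 and Ncf4 at 2.01 ± 0.25. Cybb was higher by 1.03 ± 0.34 (adjusted p = 0.0144), a call that was lost with library-size scaling (0.82, adjusted p = 0.0509) and without OE-MLKL 2 (0.90, adjusted p = 0.0795). Cyba was higher by 0.98 ± 0.15 (adjusted p = 1.8e-05).

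Macrophages and monocytes did not differ in any of the 5 genes by this test, where 15.5% of all genes did. The log2 fold changes of macrophages over monocytes were 0.07 ± 0.28 for Cybb, 0.15 ± 0.15 for Cyba, 0.62 ± 0.26 for Ncf1, 0.16 ± 0.24 for Ncf4 and -0.05 ± 0.21 for Rac2. The Ncf1 difference had an unadjusted p of 0.0283 and an adjusted p of 0.123. With every gene of at least 1 UMI in the fit, 1 of the 5 genes passed.

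Both of these cell types stood far above dendritic cells in Cybb. Macrophages exceeded dendritic cells in 4 of 5 genes beside 32.9% of all genes, with log2 fold changes of 3.87 ± 0.35 for Cybb (adjusted p = 3.1e-08), 0.89 ± 0.23 for Rac2, 0.76 ± 0.27 for Ncf1 (adjusted p = 0.0379) and 0.57 ± 0.15 for Cyba. Ncf4 missed the threshold at 0.56 ± 0.25 (adjusted p = 0.0962). Without OE-MLKL 2 only 2 of the 5 passed this comparison, Cybb and Cyba, and without OE-MLKL 1 Ncf1 did not (0.45, adjusted p = 0.216). Ncf1 passed in 8 of the 11 fits of this comparison, alternatives included. Monocytes exceeded dendritic cells in 2 of 5 genes beside 24.7% of all genes, Cybb at 3.80 ± 0.35 and Rac2 at 0.94 ± 0.24, and the Rac2 call was lost without OE-MLKL 2 (0.77, adjusted p = 0.0793). Cyba missed the threshold at 0.42 ± 0.15 (adjusted p = 0.052).

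**Figure D2:**
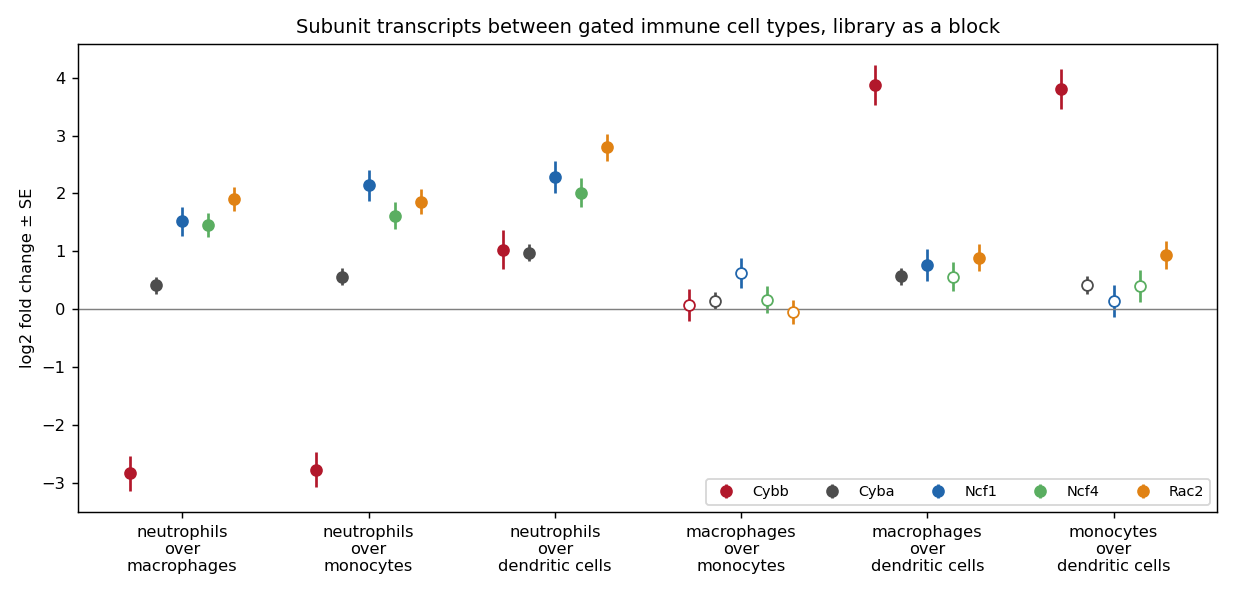
Log2 fold changes ± SE between pairs of gated leukocyte types, 1 colour per gene. Filled points passed an adjusted p of 0.05 and open points did not. Cybb is the only one of the 5 that is below 0 for neutrophils over macrophages (-2.84) and over monocytes (-2.78), and it stands apart at 3.87 and 3.80 for macrophages and monocytes over dendritic cells.

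In CPM, cancer cells were the lowest of the 5 classes for every gene. Over cancer cells all 5 genes passed in neutrophils, macrophages, monocytes and dendritic cells, beside 79.3%, 67.1%, 52.7% and 52.4% of all genes. The log2 fold change of macrophages over cancer cells was 7.22 ± 0.36 for Cybb and that of neutrophils over cancer cells was 6.86 ± 0.32 for Ncf1. Cyba gave 4.59 ± 0.17 in macrophages, 4.44 ± 0.17 in monocytes and 4.02 ± 0.17 in dendritic cells.

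The low levels of cancer cells were set beside those in free RNA. In cancer cells Cybb, Ncf1, Ncf4 and Rac2 stood at 4.08% to 10.0% of their CPM in barcodes of up to 100 UMIs. The neutrophil marker list stood at 3.55% to 5.71% and the macrophage list at 5.37% to 8.34%, with UMIs of all 10 and all 8 markers in every library. The share of Cybb was above those of both lists in 1 of 4 libraries, that of Ncf1 in 3, that of Ncf4 in 3 and that of Rac2 in 1. Cyba stood higher, at 11.2% to 17.2%, above both lists in all 4. The part of free RNA in these levels was not tested.

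In neutrophils Cybb was near the free RNA level, at 48.1% of it in OE-Vector 1 and at 120%, 152% and 75.5% in OE-MLKL 1 to 3. The macrophage list stood at 16.9% there in OE-Vector 1 and at 31.1%, 28.5% and 24.5% in the others, with all 8 markers detected and Apoe the most abundant at 888 to 1849 CPM. For each 1000 UMIs of the macrophage list there were 37.6 to 77.5 of Cybb in neutrophils, 19.8 to 24.0 in macrophages and 12.2 to 14.5 in free RNA. Monocytes held 166 to 277 Cybb UMIs for each 1000 of the macrophage list. The part of macrophage and monocyte RNA in the neutrophil value was not tested.

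The Ncf1 level of macrophages was likewise set beside that of neutrophils. It was 27.7%, 58.0%, 49.6% and 28.1% of the neutrophil level in OE-Vector 1 and OE-MLKL 1 to 3, and the neutrophil markers in macrophages were at 0.483% to 1.05% of their neutrophil level. The part of neutrophil RNA in the macrophage value was not tested.

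**Figure D3:**
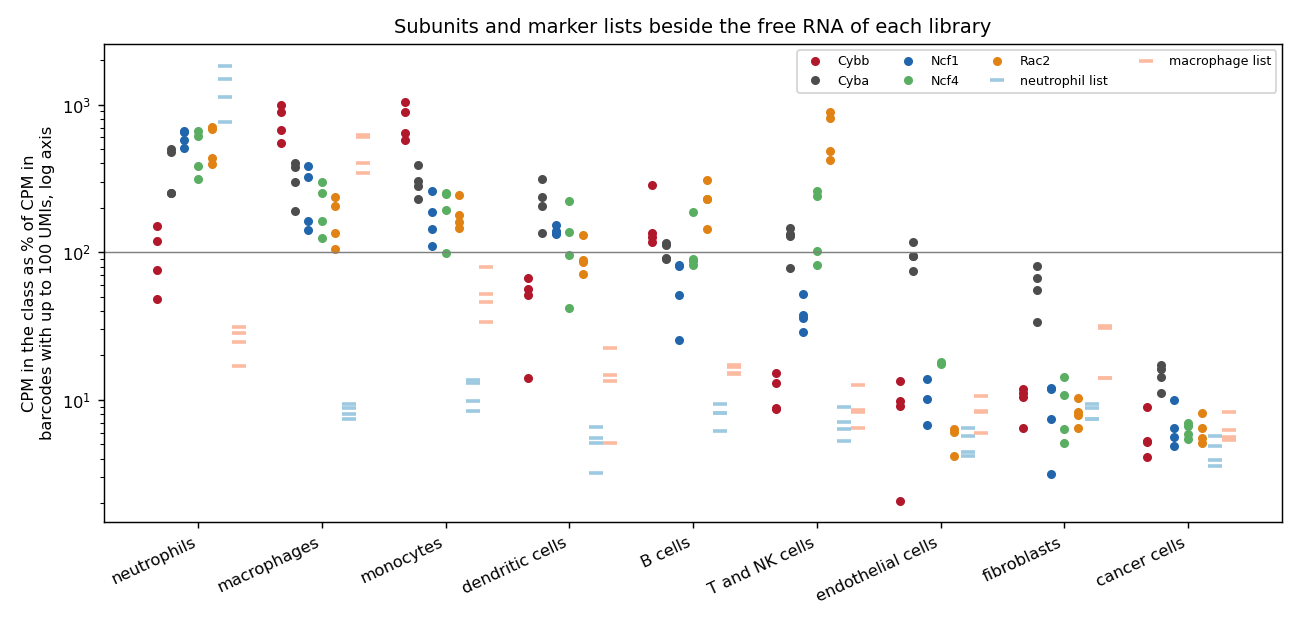
CPM of each gene (points, 1 per library) and of 2 marker lists (short dashes) in 9 gated classes as a percent of the CPM in barcodes of up to 100 UMIs of the same library, on a log axis with a line at 100%. Values of 0 UMIs are not drawn. Cybb reaches 551% to 1003% in macrophages and 48.1% to 152% in neutrophils, and in cancer cells Cybb, Ncf1, Ncf4 and Rac2 lie at 4.08% to 10.0% beside marker lists at 3.55% to 8.34%.

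Outside the 5 main classes Rac2 in T and NK cells stood at 425% to 894% of the free RNA level. Cybb in T and NK cells was at 8.70% to 15.2% of it, beside a macrophage list at 6.49% to 12.7%. Cybb in B cells was at 117% to 287%, with 327 CPM in OE-Vector 1 and 113, 123 and 144 CPM in OE-MLKL 1 to 3, from 49 to 140 cells a library. Endothelial cells held Cyba at 253 to 501 CPM, 75.2% to 117% of the free RNA level, and Cybb at 2.37 to 12.2 CPM.

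Per cell, the classes were compared after each cell was thinned to 500 UMIs, since depth differs between them. A Cybb UMI was then seen in 26.0% to 34.7% of macrophages and in 2.36% to 6.16% of neutrophils, against 90.9% to 93.8% and 5.10% to 10.6% unthinned. Cancer cells gave 0.217% to 0.654% thinned. Ncf1 was seen in 17.6% to 47.1% of thinned neutrophils and in 11.4% to 17.7% of thinned macrophages. At full depth all 5 genes were seen together in 9.52% to 38.3% of macrophages and in 0.175% to 1.59% of neutrophils. In UMIs per cell, which follow depth, the means of macrophages were above those of neutrophils for Ncf1, Ncf4 and Rac2 as well. Over the 4 libraries Ncf1 averaged 1.98 UMIs per macrophage and 1.01 per neutrophil. Ncf4 averaged 0.643 and 0.255, and Rac2 1.30 and 0.737. The mean number of the 5 genes seen in a thinned cell was 1.001 to 1.32 in neutrophils and 0.969 to 1.09 in macrophages. It was higher in neutrophils in every library.

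Across the 20 sums of cell type and library all pairs of the 5 genes were positively correlated (Pearson's r of log2(CPM + 1) 0.69 to 0.98), as the cancer sums are low for all. Over the 16 leukocyte sums Ncf1, Ncf4 and Rac2 kept r of 0.80 to 0.88 with each other, and Cybb gave -0.03 with Ncf1, 0.04 with Rac2, 0.20 with Ncf4 and 0.39 with Cyba. The sums share libraries and cell types, so these values only describe them. Of 8751 other genes, those most like Cybb over the 20 sums were Lyz2 (r = 0.97), which encodes lysozyme, Cd68 (0.95), a lysosomal glycoprotein of macrophages, and Ifi207 (0.95). Those most like Cyba were Spi1 (0.97), which encodes the myeloid transcription factor PU.1, Crlf2 (0.97) and Cotl1 (0.97). Ncf1 and Rac2 were both most like Rgs2 (0.98 and 0.99), a regulator of G-protein signalling, followed by Apbb1ip and Dennd1c for Ncf1 and by Srgn and Syk for Rac2. Ncf4 was most like Fam111a (0.98), Wipf1 (0.97) and Lcp2 (0.97).

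The genes that activate or assemble the oxidase, a list of 32, are given beside the share of all genes that passed in either direction. In neutrophils over macrophages 16 of 32 passed as higher and 4 as lower beside 68.4% of all genes, with a list median of 0.41 beside 0.08 over all genes. The largest were the formyl peptide receptors Fpr1 (log2 fold change 4.304) and Fpr2 (3.99), the Src-family kinase Fgr (2.48) and the actin regulator Coro1a (2.095). Over monocytes 20 passed as higher and 4 as lower beside 48.1%, and over dendritic cells 21 and 2 beside 55.3%. Macrophages over dendritic cells gave 15 higher and 3 lower beside 32.9%, led by the complement receptor C5ar1 (4.05), the integrin chain Itgam (4.04) and the Fc receptor Fcgr3 (3.77). In macrophages over monocytes 7 passed as higher and 4 as lower beside 15.5%, and the 4 of largest change were all lower in macrophages, Fpr2 (-1.94), Prkca (-1.55), Fpr1 (-1.48) and Fgr (-1.26). Monocytes over dendritic cells gave 13 higher and 4 lower beside 24.7%.

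Rac1, the broadly expressed relative of Rac2, is on that list and was singled out for its role after its values were seen. Its log2 fold change was 0.48 ± 0.13 for neutrophils over macrophages (adjusted p = 0.0023).

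The other oxidases and their partners, 9 genes, were hardly detected. Nox1, the colon oxidase, stood at 0.779 CPM or less in cancer cells and Nox4, a constitutively active oxidase, at 0.0831 CPM or less. Only 1 of the 9 could be tested between cell types, Noxo1, and its call for neutrophils over monocytes rested on 1 UMI in monocytes. Of 14 enzymes that handle superoxide and peroxide, 13 could be tested, and 4 passed as higher and 6 as lower in neutrophils over macrophages beside 68.4% of all genes. Gpx3 (-3.42), the secreted glutathione peroxidase, Cat (-2.03), catalase, and Prdx1 (-1.90) were lower in neutrophils, and Prdx6 (2.37) was higher. Mpo, the neutrophil granule peroxidase, had 2 UMIs in all neutrophils together.

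Within a cell type, states were marked by gene lists that exclude the 5 genes, and sums of at least 20 cells were compared with the library as a block. Neutrophils marked by Ccl3 and Ccl4 and those with an interferon signature did not differ in any of the 5 genes (4.28% of all genes passed). Cybb, with a log2 fold change of -0.40 ± 0.19, had an unadjusted p of 0.0407 there. Against neutrophils marked by Retnlg and Mmp8 the Ccl3-Ccl4 state was lower in Cyba by -0.36 ± 0.12 (adjusted p = 0.0414) and in Rac2 by -0.40 ± 0.12 (adjusted p = 0.0154), beside 17.7% of all genes. The interferon state was lower than the Retnlg-Mmp8 state in Rac2 by -0.47 ± 0.14 (adjusted p = 0.034), beside 6.23%. None of these 3 neutrophil calls was kept with library-size scaling, or without OE-MLKL 2 or OE-MLKL 3, and without OE-Vector 1 the Ccl3-Ccl4 calls of Cyba and Rac2 were lost and Cybb passed (-0.36, adjusted p = 0.0467). In the same contrast of Ccl3-Ccl4 over Retnlg-Mmp8, 1 of the 31 activation and assembly genes tested passed as higher, the proton channel Hvcn1 at 1.01, and 13 passed as lower, beside the 17.7% of all genes and with a list median of -0.27. With library-size scaling most called genes of this contrast were higher instead of lower, and the list was not counted with that scaling.

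In macrophages the largest difference was in Cyba. It averaged 1272 ± 252 CPM in the Arg1 state, 1089 ± 219 in the Cx3cr1 state and 943 ± 217 in the Mrc1-F13a1 state (n = 4). The Arg1 state exceeded the Cx3cr1 state in Cyba by 0.34 ± 0.07 (adjusted p = 0.0020) and was lower in Rac2 by -0.24 ± 0.08 (adjusted p = 0.0331), beside 21.9% of all genes. It exceeded the Mrc1-F13a1 state in Cyba by 0.57 ± 0.07 (adjusted p = 1.9e-05) and in Cybb by 0.27 ± 0.06 (adjusted p = 0.0075), beside 14.7% of all genes. The Cx3cr1 state exceeded the Mrc1-F13a1 state in Cybb by 0.25 ± 0.06 (adjusted p = 0.0348), beside 4.49%. With library-size scaling, or without OE-MLKL 2 or OE-MLKL 3, both Cybb calls were lost (adjusted p = 0.061 to 0.319). The second of them was lost without OE-Vector 1 and with doublets kept as well, and the Rac2 call was lost without OE-MLKL 1 (adjusted p = 0.108) or OE-MLKL 3 (adjusted p = 0.299). The monocyte list stood at 437, 352, 532 and 412 CPM in the Arg1 state of OE-Vector 1 and OE-MLKL 1 to 3. In the Cx3cr1 state it stood at 215, 110, 133 and 146 CPM, and in the Mrc1-F13a1 state at 406, 146, 200 and 190 CPM. Its part in the differences between these states was not tested.

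In dendritic cells the states differed most in Cybb. In OE-Vector 1 it was 132 CPM in the Ccr7 state, which marks mature migratory cells, and 12.4 CPM in the Xcr1-Clec9a state, which marks conventional cells of type 1. In OE-MLKL 3 it was 164 and 30.7 CPM. Only these 2 libraries held at least 20 cells of both states, and the model gave a log2 fold change of 2.83 ± 0.39 for Cybb (adjusted p = 2.1e-11), 1.16 ± 0.26 for Ncf1 (adjusted p = 7.2e-05) and 0.71 ± 0.24 for Cyba (adjusted p = 0.0124), beside 28.7% of all genes. Ncf4 gave -0.76 ± 0.39 and Rac2 -0.49 ± 0.32, neither past the threshold. With so few sums the error of these values rests on the spread shared over genes, and with every gene of at least 1 UMI in the fit Cyba did not pass (adjusted p = 0.264). The macrophage list stood at 2510 and 939 CPM in the Ccr7 state of OE-Vector 1 and OE-MLKL 3 and at 698 and 1418 CPM in the Xcr1-Clec9a state. In OE-MLKL 2, with 21 and 16 cells of these states, it stood at 3617 and 497 CPM. The list was thus higher in the Ccr7 state in OE-Vector 1 and OE-MLKL 2 and lower in OE-MLKL 3, and its part in the Cybb difference was not tested.

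**Figure D4:**
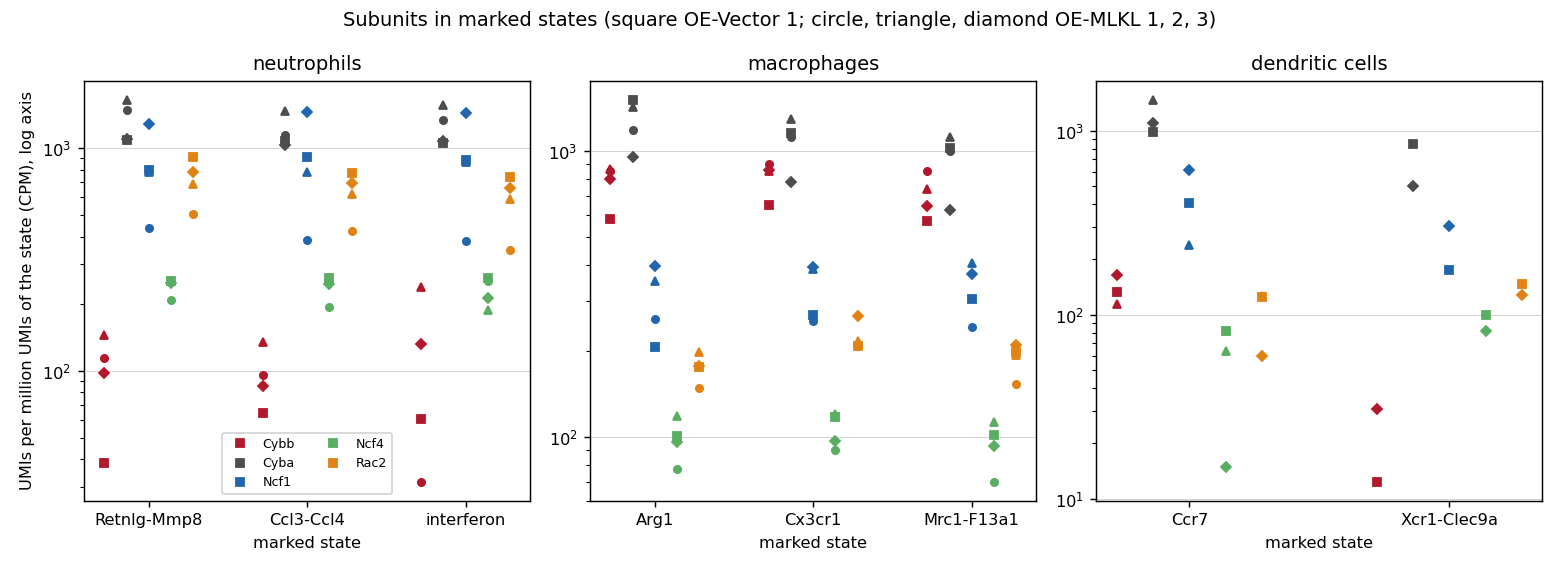
CPM (log axis) of each gene, by colour, in marked states of neutrophils, macrophages and dendritic cells with at least 20 cells, 1 marker per library. Cybb is 114 to 164 CPM in the Ccr7 state of dendritic cells and 12.4 to 30.7 CPM in the Xcr1-Clec9a state, and among neutrophils and macrophages only Rac2 separates a pair of states, at 208.0 to 265.6 CPM in the Cx3cr1 state against 148.6 to 198.3 CPM in the Arg1 state.

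The libraries labelled OE-MLKL were then compared with OE-Vector 1 in each cell type, which addresses whether overexpression of MLKL in the cancer cells goes with a change of the oxidase genes around them. None of the 25 tests passed (edgeR quasi-likelihood, adjusted p after Benjamini and Hochberg), and 1 had an unadjusted p under 0.05. OE-Vector 1 is a single library, so the group and the tumour cannot be told apart, and an exact permutation test of 1 against 3 libraries cannot go below p = 0.25.

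In neutrophils Cybb was higher in all 3 libraries labelled OE-MLKL (112.6 ± 23.2 CPM, n = 3) than in OE-Vector 1 (55.0 CPM), with a log2 fold change of 0.82 ± 0.38 (adjusted p = 0.650). Without OE-MLKL 3 the difference was 0.96 and passed (adjusted p = 0.0401), together with 1316 genes in all. Over the other alternatives the difference ran from 0.48 to 1.03 and none passed. The macrophage list in these neutrophils was also lower in OE-Vector 1, at 1340 CPM against 1782 to 2466 CPM. Apoe, its most abundant gene, stood at 888 CPM against 1849, 1454 and 1705 CPM in OE-MLKL 1 to 3. C1qa, another gene of the list, stood at 149 CPM against 63.5, 106 and 285 CPM. The part of the list in the Cybb difference was not tested. Rac2 gave -0.60 ± 0.38, Ncf4 -0.43 ± 0.32, Ncf1 -0.30 ± 0.61 and Cyba 0.08 ± 0.43. The Ccl3-Ccl4 state made up 3251 of 6121 neutrophils in OE-Vector 1 and 1154 of 5135, 1758 of 7869 and 2691 of 6344 in OE-MLKL 1 to 3, and its part in these values was not tested. OE-Vector 1 lay outside the OE-MLKL range for 3 of 5 genes, below it for Cybb and above it for Ncf4 and Rac2, as it did for 58.1% of all genes. No gene of 12789 passed in neutrophils (0%), with 1012 at an unadjusted p under 0.05, while DESeq2 called 88 and limma-voom 0.

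In macrophages Cybb was again higher in all 3 libraries labelled OE-MLKL, at 845 ± 45 CPM against 630 CPM, with a log2 fold change of 0.33 ± 0.35 (adjusted p = 0.926). Cyba was lower in all 3, at 1042 ± 229 CPM against 1295 CPM (log2 fold change -0.40 ± 0.41). The Mrc1-F13a1 state, the lowest of the 3 in mean Cyba, made up 154 of 1756 macrophages in OE-Vector 1 and 1243 of 2426, 1080 of 2175 and 227 of 2682 in OE-MLKL 1 to 3, and its part in these values was not tested. The macrophage list was lower in macrophages of OE-Vector 1, at 31815 CPM against 39693, 39113 and 34727 CPM. The monocyte list was higher there, at 322 CPM against 228, 273 and 188 CPM, and the part of both lists was not tested. The other 3 genes overlapped between the groups, Ncf1 at 0.35 ± 0.36, Ncf4 at -0.31 ± 0.32 and Rac2 at -0.05 ± 0.32. OE-Vector 1 lay outside for 2 of 5 genes against 53% of all genes, and 0.00745% of all genes passed the test.

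In monocytes the direction of Cybb was the opposite, with all 3 libraries labelled OE-MLKL (745 ± 186 CPM) below OE-Vector 1 (1017 CPM) and a log2 fold change of -0.49 ± 0.46 (adjusted p = 0.999). Cyba (-0.42 ± 0.47) and Ncf4 (-0.70 ± 0.41) were also below it in all 3. Rac2 gave -0.49 ± 0.52 and Ncf1 0.35 ± 0.54 with overlap. These 3 of 5 genes compare with 43.8% of all genes whose OE-Vector 1 value lay outside, and 0.131% of all genes passed. The monocyte list itself stood at 4761 CPM in monocytes of OE-Vector 1 and at 1880, 2356 and 2649 CPM in those of OE-MLKL 1 to 3. The fibroblast list stood there at 242 CPM against 1510, 374 and 533 CPM and the macrophage list at 3668 CPM against 3398 to 4998 CPM, and the part of these lists in the differences was not tested.

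In dendritic cells all 5 fold changes were negative, Cybb -0.38 ± 0.48, Cyba -0.30 ± 0.47, Ncf1 -0.26 ± 0.46, Ncf4 -0.61 ± 0.47 and Rac2 -0.70 ± 0.43. OE-Vector 1 was above all 3 libraries labelled OE-MLKL for Cybb, Ncf4 and Rac2, 3 of 5 genes against 41.6% of all genes outside the range. For Cybb the nearest library was at 63.2 CPM against 63.98 CPM, less than the counting error. Of all genes 0.202% passed. The Xcr1-Clec9a state made up 39 of 101 dendritic cells in OE-Vector 1 and 10 of 28, 16 of 48 and 128 of 168 in OE-MLKL 1 to 3, and its part in these values was not tested.

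In cancer cells Cyba gave the 1 unadjusted p under 0.05. It was lower in the 3 libraries labelled OE-MLKL (46.0 ± 7.3 CPM) than in OE-Vector 1 (74.0 CPM), with a log2 fold change of -0.78 ± 0.29 (adjusted p = 0.998). The monocyte list in cancer cells was also higher in OE-Vector 1, at 694 CPM against 324, 217 and 385 CPM. Ly6c2, a gene of that list, stood at 1.63 CPM there and at 0.937, 1.11 and 2.32 CPM in OE-MLKL 1 to 3. The neutrophil list, at 257 CPM against 154 to 583 CPM, lay within the OE-MLKL range. So did the macrophage list, at 441 CPM against 355 to 838 CPM. The part of these lists in the Cyba difference was not tested. Cyba was 1 of 5 genes outside the range, against 49.6% of all genes, and 0.00593% of all genes passed. The other 4 genes gave -0.04 ± 0.57 for Cybb, 0.04 ± 0.89 for Ncf1, -0.47 ± 0.62 for Ncf4 and -0.47 ± 0.65 for Rac2.

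**Figure D5:**
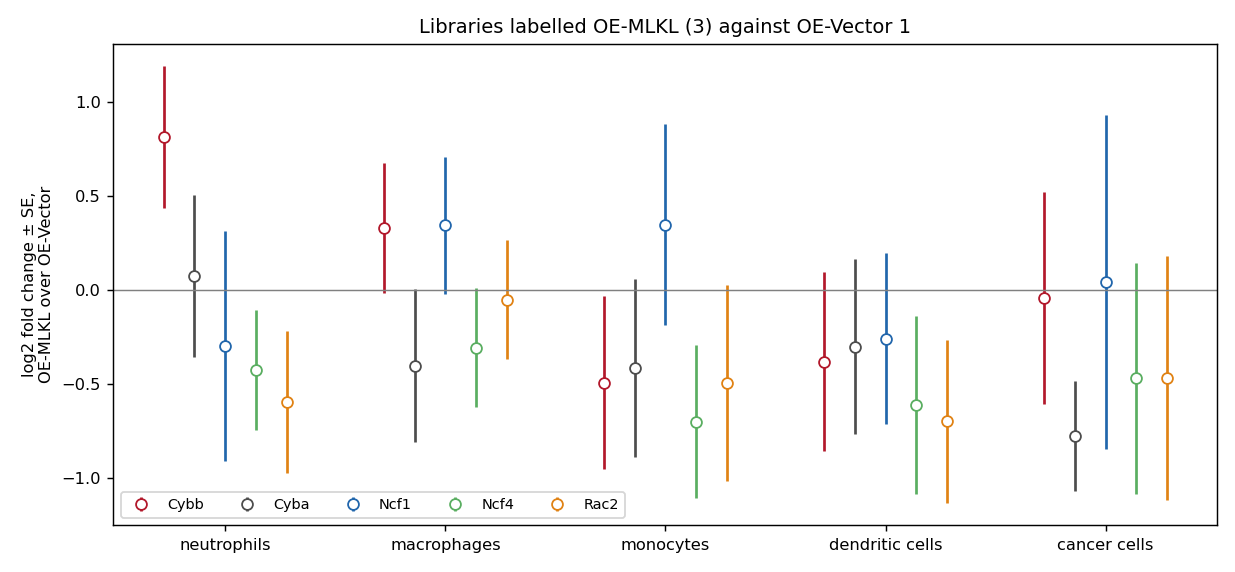
Log2 fold change ± SE of the 3 libraries labelled OE-MLKL over OE-Vector 1 in each gated cell type, 1 colour per gene. All points are open because none passed an adjusted p of 0.05, and the largest is Cybb in neutrophils at 0.82 ± 0.38.

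Whether the group difference itself varied between cell types was tested in 1 model over all sums. Relative to macrophages, none of the 20 differences passed, and the smallest unadjusted p was 0.0960, for Rac2 in dendritic cells (-0.85 ± 0.49). The largest differences for neutrophils, monocytes and cancer cells were those of Ncf1 (-0.88 ± 0.54), Cybb (-0.93 ± 0.56) and Ncf1 (-0.61 ± 0.54). Of all genes 0.0189% passed for neutrophils, 0% for monocytes, 0.0063% for dendritic cells and 0.0315% for cancer cells. For monocytes 859 genes had an unadjusted p under 0.05. Without OE-MLKL 3, the library with the highest Ncf1, the Ncf1 difference was -1.11 for neutrophils (adjusted p = 0.00997) and -1.25 for cancer cells (adjusted p = 0.00501), together with 777 and 520 genes in all, against 3 and 5 with every library.

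None of the pathway genes tested beside the 5 passed between the groups in any cell type. Of the activation and assembly genes, 26 of 32 had a negative fold change in neutrophils (median -0.25, beside 0.04 over all genes), 27 of 32 in monocytes (-0.26, beside 0.07), 20 of 32 in cancer cells (-0.23, beside 0.03), 19 of 32 in macrophages (-0.08, beside 0.04) and 16 of 29 in dendritic cells (-0.03, beside 0.05), all of them short of the threshold. Library-size scaling alone moved the median of all genes in neutrophils from 0.04 to 0.26.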

How the data were processed

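Single-cell 3′ RNA libraries of whole tumours were deposited as unfiltered matrices of UMI counts per gene and barcode, made by the authors with Cell Ranger. The submitters' processing notes name Cell Ranger 2.1.1 and mm10, the file headers name software version 7.1.0 and the methods of the study name another, so the version is not settled. Matrices of 4 of 6 libraries were used, and 2 were not analysed here. Each group comes from the labels.

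Barcodes with at least 500 UMIs, over 200 genes, under 10% mitochondrial and under 5% haemoglobin UMIs were kept, and barcodes scored as doublets were removed at 0.8% per 1000 cells, which left 13489 to 18808 cells a library. Cell types were gated on marker lists whose share of UMIs passed a cut. The cuts were set after the distributions of list shares were seen and without reading the 5 genes. The genes and lists were chosen with earlier results of these data known.

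Counts were summed per library and cell type and tested with edgeR 4.0.16 in R 4.3.3 (TMM scaling, filterByExpr, quasi-likelihood test, Benjamini-Hochberg over all genes, threshold 0.05). Contrasts between cell types and states took the library as a block. DESeq2 1.42.0, limma 3.58.1, library-size scaling, other filters, gates and left-out libraries were alternatives. The fits were also run on simulated counts with the same dispersion for every gene and group, which cannot show the spread between OE-Vector tumours. Cells were handled in Python 3.11.15 with numpy 2.4.6, scipy 1.17.1 and scikit-learn 1.9.0. Intervals are exact 95% Poisson intervals and cover counting error only. Depth was 150591289 to 169978362 UMIs a library, and per cell it was lowest in neutrophils. The monocytes and dendritic cells are limited chiefly by their small numbers of cells. Named genes are the 5 oxidase genes, of each pathway list at most the 4 called genes of largest change in a comparison, and the 3 genes most correlated with each oxidase gene among those with a mean of at least 10 CPM. Rac1, Nox1, Nox4 and Mpo of the lists are named beyond this rule, as are Mlkl and some marker genes. Replicates are separate tumours in the methods of the study. Between the groups the p-values and errors rest on the spread among the OE-MLKL libraries and hold none between OE-Vector tumours. Between cell types and states they rest on the spread over libraries left by the model, pooled over its cell types or states and not taken from each contrast alone. Results for 1 gene of the activation and assembly list are not reported here.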

Additional observations from a re-analysis of the deposited data

Results flagged for a closer look

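The direction of Cybb between the groups was opposite in different cell types. All 3 libraries labelled OE-MLKL were above OE-Vector 1 in neutrophils and macrophages. All 3 were below it in monocytes and dendritic cells. OE-Vector 1 lay outside the OE-MLKL range for 58.1% of all genes in neutrophils, 53% in macrophages, 43.8% in monocytes and 41.6% in dendritic cells. In how many genes the side was opposite between cell types was not counted. The difference of the Cybb log2 fold changes was 1.34 (SE 0.57, adjusted p = 0.728) for neutrophils minus monocytes. For neutrophils minus dendritic cells it was 1.20 (SE 0.65, adjusted p = 0.879). It was 0.93 (SE 0.56, adjusted p = 0.933) for macrophages minus monocytes and 0.79 (SE 0.64, adjusted p = 1) for macrophages minus dendritic cells. None of these passed in edgeR's quasi-likelihood test after Benjamini-Hochberg adjustment, and the pairs without macrophages were chosen after seeing the data. All 4 differences share the single OE-Vector library. In dendritic cells the nearest library, OE-MLKL 3 at 63.2 CPM, differed from OE-Vector 1 at 63.98 CPM by less than the counting error. The same held for dendritic cells of OE-MLKL 2, and for its monocytes, at 945 CPM against 1017 CPM in OE-Vector 1. Beyond counting error, the lower values thus rest on OE-MLKL 1 and 3 in monocytes and on OE-MLKL 1 in dendritic cells. The monocyte gates differed in content as well. The leukocyte gene Ptprc stood there at 683 CPM in OE-Vector 1 and at 232, 468 and 1010 CPM in OE-MLKL 1 to 3. Spi1 stood at 444 CPM against 173, 364 and 292 CPM, and the fibroblast list at 242 CPM against 1510, 374 and 533 CPM. The part of gate content in the Cybb difference was not tested. The Ccr7 state of dendritic cells was read in the libraries with at least 20 such cells. Cybb there was 132 CPM in OE-Vector 1, 114 CPM in OE-MLKL 2 and 164 CPM in OE-MLKL 3. In the Xcr1-Clec9a state it was 12.4 CPM in OE-Vector 1 and 30.7 CPM in OE-MLKL 3, and OE-MLKL 1 and 2, with 10 and 16 such cells, had no Cybb UMI. That state made up 39 of 101 dendritic cells in OE-Vector 1 and 10 of 28, 16 of 48 and 128 of 168 in OE-MLKL 1 to 3. OE-MLKL 3 was thus above OE-Vector 1 within the Ccr7 and the Xcr1-Clec9a state, though not over all dendritic cells. The part of the state shares in this was not tested.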

How the results depend on the processing

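No paired analysis was possible because the groups share only replicate number 1 among the libraries analysed. With library-size scaling the median log2 fold change of all genes was 0.26 in place of 0.04 between the groups in neutrophils, -0.13 in place of 0.08 for neutrophils over macrophages, -0.29 in place of 0.02 over monocytes and -0.52 in place of -0.12 over cancer cells, so changes are relative to the scaling used. The split of all genes called higher and lower changed with it from 3336 and 3208 to 2205 and 4359 for neutrophils over monocytes, from 5019 and 5781 to 3893 and 7006 for neutrophils over cancer cells, and from 996 and 1118 to 715 and 1349 for macrophages over monocytes. For states it changed from 617 and 910 to 1972 and 439 for Ccl3-Ccl4 and from 271 and 266 to 370 and 150 for interferon, both over Retnlg-Mmp8, and from 1338 and 977 to 884 and 1783 for Arg1 over Cx3cr1 and from 1025 and 532 to 541 and 1259 for Arg1 over Mrc1-F13a1.

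Of the values for the 5 genes, 262 kept direction and side of the threshold between the groups, 12 reversed and 1 newly passed. Between cell types 472 kept both, 10 reversed, 11 lost and 7 gained the call. Between states only the genes called above were followed, and of their values 49 kept both and 22 lost the call. Calls gained and directions reversed in the other genes are not in these state counts. None of the reversed values was called, and their cause was not tested. With library-size scaling the group difference reversed for Rac2 in macrophages (0.058) and Cybb in cancer cells (0.11), and macrophages over monocytes for Cybb (-0.039). With the stricter gate Cybb in cancer cells became 0.075, and macrophages over monocytes became -0.15 for Cybb and -0.070 for Ncf4. With doublets kept Cybb in cancer cells was 0.041 and Rac2 of macrophages over monocytes 0.019, which was 0.056 with all genes of 1 UMI. Limma-voom gave -0.34 for Ncf1 in cancer cells.

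Genes called between the groups in neutrophils numbered 88 with DESeq2 and 33 with all genes of 1 UMI. In macrophages they numbered 67 with DESeq2, 16 with all genes of 1 UMI, and 0 with limma-voom, a mean of 20 UMIs, the stricter gate or doublets kept. In monocytes they numbered 6 with library-size scaling, 17 with DESeq2, 3 with limma-voom, 166 with all genes of 1 UMI, 3 with a mean of 20 UMIs and 16 with the stricter gate. In dendritic cells they numbered 2 with DESeq2, 3 with limma-voom and 0 with a mean of 20 UMIs, and in cancer cells 96 with DESeq2 and 0 with library-size scaling, limma-voom or the stricter gate. Of the 5 genes, macrophages over monocytes gave 1 call with all genes of 1 UMI. For the difference of the group effect from macrophages, all genes of 1 UMI gave 157 calls in neutrophils, 121 in monocytes, 30 in dendritic cells and 142 in cancer cells, and doublets kept gave 5 in neutrophils.

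Between states, library-size scaling left 0 of the 5 genes called for Ccl3-Ccl4 over Retnlg-Mmp8 (2411 genes in all), 0 for interferon over Retnlg-Mmp8, 1 for Arg1 over Mrc1-F13a1 and 0 for Cx3cr1 over Mrc1-F13a1. The last contrast gave 0 with doublets kept and 3 with all genes of 1 UMI (773 genes in all).

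Leaving out 1 library at a time, 0 to 1 of the 5 genes and 19 to 1316 of all genes were called between the groups in neutrophils. The range of all genes was 11 to 233 in macrophages, 63 to 230 in monocytes, 11 to 84 in dendritic cells and 17 to 530 in cancer cells. Log2 fold changes between the groups spanned -0.062 to 0.24 for Cyba and -0.79 to 0.021 for Ncf1 in neutrophils, -0.17 to 0.062 for Rac2 in macrophages, -0.75 to 0.016 for Ncf1 in dendritic cells, and -0.51 to 0.20 for Cybb and -0.88 to 0.47 for Ncf1 in cancer cells. Macrophages over monocytes ran from -0.17 to 0.33 for Cybb and -0.29 to 0.13 for Rac2, and monocytes over dendritic cells from -0.088 to 0.34 for Ncf1. Calls among the 5 genes ran from 2 to 4 for macrophages and 1 to 2 for monocytes over dendritic cells, the latter with 2171 to 3151 genes in all. For states, Ccl3-Ccl4 over interferon had 221 to 441 genes in all. Ccl3-Ccl4 over Retnlg-Mmp8 had 0 to 2 of the 5 and 689 to 1732 in all, interferon over Retnlg-Mmp8 0 to 1 and 279 to 564, Arg1 over Cx3cr1 1 to 2 and 1333 to 2011, Arg1 over Mrc1-F13a1 1 to 2 and 991 to 1310, and Cx3cr1 over Mrc1-F13a1 0 to 1 and 104 to 364. For the dendritic cell states only libraries outside the contrast could be left out, and without OE-Vector 1 or OE-MLKL 3 no fit was possible. The difference of the group effect from macrophages gave 0 to 1 of the 5 genes and 0 to 777 of all genes in neutrophils, 1 to 188 of all genes in monocytes, 0 to 52 in dendritic cells, and 0 to 1 of the 5 and 0 to 520 of all genes in cancer cells.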
